A study of Bos taurus with 12 samples.

Results

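The set described here holds 9 interferon-stimulated genes, ISG15, MX1, MX2, IFI6, IFI44, RSAD2, STAT2, IRF1 and IRF9, found by symbol among the 33714 rows of the mRNA expression table. A row was found for 8 of the 9 genes, with 1 row each, and IRF9 was not analysed here. Levels are in FPKM, fragments scaled to transcript length and to the mapped fragments of a library, a scale on which levels of different genes can be set side by side. STAT2, IRF1, MX1 and IFI6 reached a mean of at least 0.1 FPKM over all libraries and were tested. ISG15, RSAD2, MX2 and IFI44 lay below it and are described by their values alone.

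The cells were intramuscular preadipocytes, the precursors of marbling fat, isolated from longissimus dorsi of Qinchuan calves just after birth. The study followed their gene expression through adipogenic differentiation, with 3 libraries on each of 4 days and 12 in all. Cells at 0 d had grown to near confluence in medium with serum and had received no inducer. Cells at 3, 6 and 9 d had been given IBMX, a phosphodiesterase inhibitor, with dexamethasone, a synthetic glucocorticoid, and insulin for the first 2 days, and then insulin alone. The study calls the libraries of a day biological replicates, and writes that the cells of all time points belonged to 1 batch. The labels do not say which animal or culture each came from. The FPKM of a library summed to between 1221194 and 1371794. Read counts cannot be recovered from these values, and the depth behind a single FPKM is unknown.

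Interferons are cytokines released by cells that sense foreign or misplaced nucleic acid. Type I interferon binds the receptor chains IFNAR1 and IFNAR2, whose kinases TYK2 and JAK1 phosphorylate STAT2, which joins IRF9 in a complex that switches on the stimulated genes. Type II interferon raises IRF1, and it is known to hold back the differentiation of preadipocytes in culture.

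Markers of the labelled cell type were checked first. All 6 fibroblast and preadipocyte markers were present, with a summed level of 116080 to 224750 FPKM led by COL3A1, a collagen of loose connective tissue. Of 10 adipocyte markers 8 had a row, led by FABP4, and PPARG and PLIN1 had none. FABP4, the fatty acid carrier of fat cells, had 3.36, 3.02 and 3.52 FPKM at 0 d, 94.7, 86.2 and 92.3 at 3 d, 24.5, 26.4 and 28.4 at 6 d, with 7.59, 8.84 and 10.8 at 9 d. ADIPOQ, a hormone of mature fat cells, had at most 0.03 FPKM at 0 d and at most 1.64 FPKM in any library, and it was called higher than at 0 d on each later day, with the 6 d and 9 d calls lost when single libraries were left out. Of the 8 adipocyte markers, 6 were called higher at 3 d, 5 at 6 d and 5 at 9 d vs 0 d. None was called lower, and over all mRNAs the shares called higher were 8.06%, 3.39% and 3.41%. Skeletal muscle markers were found in the same libraries. Of 6 such genes 5 had a row, and their summed level, led by DES, was 678, 715 and 792 FPKM at 0 d, 255, 281 and 278 at 3 d, 372, 359 and 402 at 6 d, with 293, 265 and 288 at 9 d. MYOD1, the factor that commits cells to the muscle lineage, had 240, 260 and 303 FPKM at 0 d and at most 113 on any later day. All 10 immune markers had a row. The list, led by CD14, had a mean sum of 1.25 FPKM before induction and of 3.66, 1.91 and 2.86 FPKM at 3, 6 and 9 d, with every 0 d library (at most 1.44) below every later one (at least 1.86). Of its 3 tested genes, CD14 and CSF1R were called higher at 3 d (CSF1R not without 0 d replicate 3), none at 6 d and CD14 at 9 d vs 0 d, beside 8.06%, 3.39% and 3.41% of all mRNAs. PTPRC, ITGAM and TYROBP, also among the immune markers, were listed at 0 in all 12 libraries. All 5 endothelial markers had a row and summed to 2.47 to 3.49 FPKM, led by VWF. In these bulk libraries fewer cells of a type and less RNA per cell cannot be told apart, and the part of a changing muscle share in the results that follow was not tested.

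Almost no interferon ligand was found, while most receptor chains and kinases were. Of 21 interferon names in the list 14 had a row, and 11 of these rows were 0 in all 12 libraries. IFNK, an interferon of epithelia, was the only ligand that reached the level for a test, at 0.09 to 0.59 FPKM. Receptor chains and kinases, by contrast, had a row for each of their 9 names, 8 of which had a mean of at least 1 FPKM. IFNAR1 had 53.2 to 75.7 FPKM, IFNAR2 1.10 to 2.1 FPKM, JAK1 14.4 to 41.6 FPKM and TYK2 135 to 177 FPKM, genes singled out for their place in the pathway after their values were seen. The median log2 fold change of the 8 tested receptor and kinase rows against 0 d was 0.16 at 3 d, -0.09 at 6 d and -0.09 at 9 d, beside -0.06, -0.15 and -0.19 over all mRNAs tested. The 6 d and 9 d medians of these rows turned positive, to 0.07 and 0.11, when FPKM were rescaled between libraries by their median ratio.

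STAT2 was by far the most abundant gene of the set. It codes for the signal transducer specific to type I and type III interferons. Its level was 172, 169 and 169 FPKM at 0 d, 156, 176 and 172 at 3 d, 134, 137 and 140 at 6 d, with 128, 121 and 140 at 9 d. The ranges of 0 d and 3 d overlapped, and all 6 libraries of 6 d and 9 d lay below every library of the earlier days. The spread between replicates was small, with a coefficient of variation of 1.21% to 7.47% within a day. With limma on log2(FPKM + 0.1), the log2 fold change against 0 d was -0.02 ± 0.06 (SE, adjusted p = 0.806) at 3 d, -0.31 ± 0.06 (adjusted p = 0.00369) at 6 d and -0.39 ± 0.06 (adjusted p = 0.000926) at 9 d. These differences lie far from the 1 log2 unit that a call requires, and STAT2 was called in no comparison. Part of the size is shared with the bulk of the transcriptome, since the median log2 fold change of all 15402 mRNAs tested was -0.15 at 6 d and -0.19 at 9 d. Median-ratio rescaling moved those medians to 0.007 and -0.003. Relative to the medians as deposited, STAT2 differed by -0.16 at 6 d and by -0.20 at 9 d, and with rescaled FPKM its adjusted p was 0.124 and 0.0529. At 3 d the rescaled log2 fold change was 0.06, with the sign turned. At 6 d vs 3 d, where the ranges did not overlap, STAT2 differed by -0.29 (adjusted p = 0.0037), or by -0.20 with rescaled FPKM (adjusted p = 0.0256).

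IRF1 showed the largest log2 fold change among the tested genes of the set. It is a transcription factor that acts on many of the same promoters as the STAT complexes and drives antigen presentation genes. Its level was 6.50, 4.12 and 6.66 FPKM at 0 d, 2.13, 4.49 and 2.59 at 3 d, 1.09, 1.03 and 1.23 at 6 d, with 4.06, 2.52 and 4.81 at 9 d. The 6 d libraries were lower than all the others and close together, while the ranges of 0, 3 and 9 d overlapped one another. The mean at 6 d, 1.12 ± 0.10 FPKM (SD, n = 3), was 0.194 of that at 0 d, 5.76 ± 1.42 FPKM. IRF1 fell at 6 d vs 0 d, with a log2 fold change of -2.24 ± 0.31 (SE, limma, adjusted p = 0.000309). It also fell at 6 d vs 3 d, by -1.31 ± 0.31 (adjusted p = 0.00546), and rose at 9 d vs 6 d, by 1.63 ± 0.31 (adjusted p = 0.00431). Both comparisons use the 6 d libraries, so a low 6 d estimate enters the fall and the rise alike. The 6 d vs 3 d call was lost with a pseudocount of 1, at -0.90. At 3 d vs 0 d the log2 fold change was -0.92 ± 0.31 (adjusted p = 0.0292), short of the threshold, and reached -1.15 without 0 d replicate 2 and -1.23 without 3 d replicate 2, where IRF1 was called. At 9 d vs 0 d it was -0.60 ± 0.31 (adjusted p = 0.16).

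IRF1 overlaps RAD50, a DNA repair gene, in the RefSeq annotation of assembly ARS-UCD2.0, and STAT2 overlaps IL23A, a cytokine subunit gene, there. How reads of overlapping genes were divided is not given in the sources used here. RAD50 had 2.14 to 3.57 FPKM and IL23A 0.50 to 1.2 FPKM.

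Among the effectors, MX1 had its highest libraries before induction. It codes for a dynamin-like GTPase that traps viral nucleocapsids. The libraries held 1.60, 1.51 and 1.98 FPKM at 0 d, 0.81, 1.05 and 0.73 at 3 d, 1.03, 0.63 and 0.55 at 6 d, with 0.40, 0.55 and 0.72 at 9 d. Every 0 d library exceeded every later one, and the ranges of neighbouring later days overlapped. MX1 fell at 6 d, with a log2 fold change against 0 d of -1.14 ± 0.25 (SE, limma, adjusted p = 0.00499), and at 9 d, with -1.47 ± 0.25 (adjusted p = 0.00107). The mean at 9 d was 0.557 FPKM, which is 0.328 of the 1.70 FPKM at 0 d. At 3 d the log2 fold change was -0.90 ± 0.25 (adjusted p = 0.0107), under the threshold of size, and -1.04 without 3 d replicate 2. The 6 d call did not hold without 6 d replicate 3 (-0.98), with rescaled FPKM (-0.98) or with a pseudocount of 1 (-0.64), and a pseudocount of 1 also ended the 9 d call (-0.79). Between 3 d and 6 d the log2 fold change was -0.23 ± 0.25 (adjusted p = 0.468), and between 6 d and 9 d it was -0.34 ± 0.25 (adjusted p = 0.401).

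IFI6 went through a low point at 3 d. Its product is a small membrane protein that hinders apoptosis and the remodelling of membranes by viruses. The level was 0.75, 0.83 and 0.87 FPKM at 0 d, 0.24, 0.41 and 0.37 at 3 d, 0.66, 0.48 and 0.77 at 6 d, with 0.99, 0.84 and 1.15 at 9 d. All 3 d libraries were below those of every other day, those of 6 d and 9 d did not overlap, and the 0 d range overlapped both. IFI6 fell at 3 d vs 0 d, with a log2 fold change of -1.08 ± 0.20 (SE, limma, adjusted p = 0.000989). That call is close to the threshold of size and was lost with rescaled FPKM (-0.9998), with a pseudocount of 1 (-0.44) and without 3 d replicate 1 (-0.90). The later steps were not called. Against 3 d the log2 fold change at 6 d was 0.74 ± 0.20 (adjusted p = 0.00986), and from 6 d to 9 d it was 0.58 ± 0.20 (adjusted p = 0.0642). Against 0 d the values were -0.33 ± 0.20 (adjusted p = 0.229) at 6 d and 0.25 ± 0.20 (adjusted p = 0.366) at 9 d.

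The remaining effectors were at the bottom of the scale. ISG15, a ubiquitin-like protein that is attached to other proteins during an interferon response, had 0.15, 0.03 and 0.09 FPKM at 0 d, 0.09 in 3 d replicate 2 and 0 in the other 3 d libraries, 0 in all 6 d libraries, and 0.17, 0.11 and 0 at 9 d. RSAD2, known as viperin, makes a chain-terminating nucleotide and had 0 to 0.01 FPKM at 0 d, 0.09, 0.06 and 0 at 3 d, 0.03, 0 and 0 at 6 d and 0 to 0.02 at 9 d. MX2, the paralog that lies next to MX1, was listed at 0 in all 0 d libraries and had at most 0.02 FPKM in any other. IFI44, a cytoplasmic protein of uncertain action, was above 0 in 3 d replicate 1 (0.01 FPKM) and 9 d replicate 2 (0.03 FPKM) and listed at 0 in the other libraries. MX2 had 0.01 FPKM in each 9 d library, the smallest step above 0 for values rounded to 2 decimals. No difference between days was tested for these genes. An entry of 0 in such a table may stand for a level below what the depth allows or for a failed estimate.

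**Figure D1:**
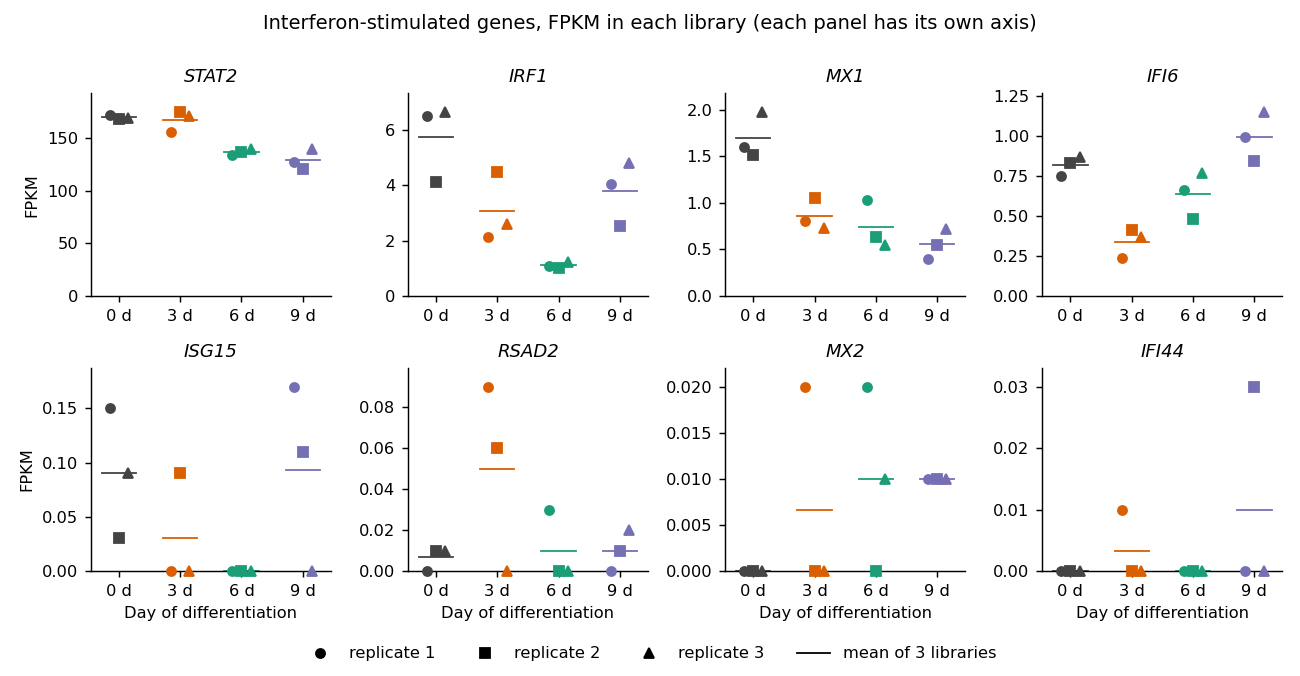
FPKM of the 8 genes in each of the 12 libraries by day of differentiation, each panel with its own linear axis from 0; symbols mark replicates and lines the mean of 3 libraries. IRF1 is lowest at 6 d (1.03 to 1.23 FPKM), MX1 highest at 0 d (1.51 to 1.98 FPKM), IFI6 lowest at 3 d (0.24 to 0.41 FPKM), and the lower 4 panels do not reach 0.2 FPKM.

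The order of levels was the same at the top on every day and changed at the bottom. STAT2 exceeded IRF1 in all libraries, and IRF1 exceeded MX1 in each library, although at 6 d the ranges met at 1.03 FPKM. MX1 and IFI6 changed places. MX1 was higher at 0 d (1.51 to 1.98 against 0.75 to 0.87 FPKM) and at 3 d (0.73 to 1.05 against 0.24 to 0.41 FPKM). Their ranges overlapped at 6 d, and IFI6 was higher at 9 d (0.84 to 1.15 against 0.40 to 0.72 FPKM). These differences between genes were not tested.

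A gene was called when its log2 fold change exceeded 1 in size and its p, adjusted after Benjamini and Hochberg over all mRNAs tested, was under 0.05. At 3 d vs 0 d, 1 of the 4 tested genes was called, IFI6, which was lower. Over all 15402 mRNAs tested the share called was 23.3%, with 8.06% higher and 15.2% lower, close to 1 in 4. At 6 d vs 0 d, IRF1 and MX1 were called, both lower, and the share over all mRNAs was 11.4% (3.39% higher and 7.97% lower). At 9 d vs 0 d, MX1 was called lower, beside 10.9% over all mRNAs (3.41% higher and 7.47% lower). IRF1 was the 1 gene called at 6 d vs 3 d, lower, where 19.1% of all mRNAs were called (9.85% higher and 9.23% lower), and the 1 gene called at 9 d vs 6 d, higher, where the share was 4.43% (2.55% higher and 1.89% lower). The median log2 fold change of the 4 genes was -0.91 at 3 d, -0.73 at 6 d and -0.50 at 9 d against 0 d, beside -0.06, -0.15 and -0.19 over all mRNAs. These 3 comparisons share the 0 d libraries. The shares called at 3 d vs 0 d and at 6 d vs 3 d, 1 of 4 each, are near those over all mRNAs and are no result for the set as a whole.

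**Figure D2:**
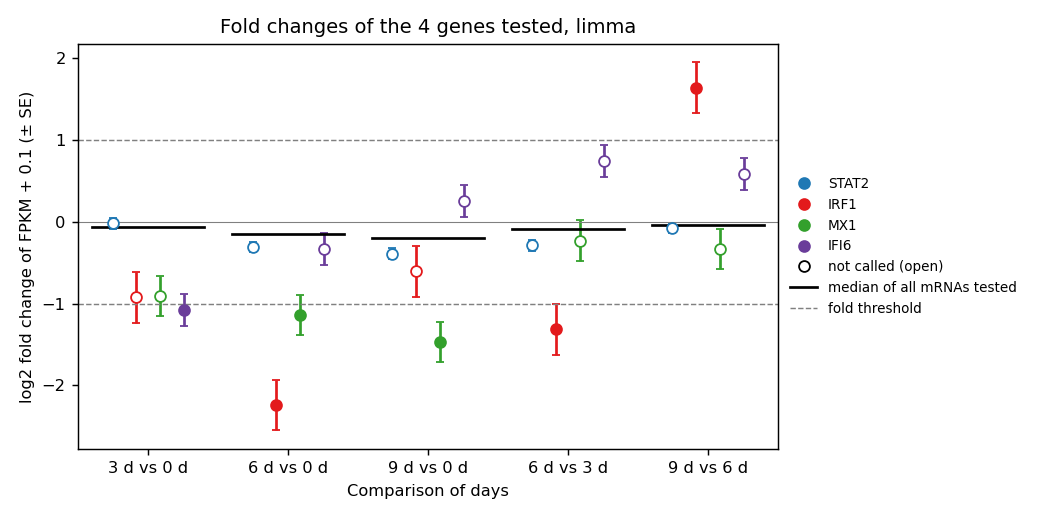
Log2 fold change of FPKM + 0.1 with its standard error (limma) for STAT2, IRF1, MX1 and IFI6 in 5 comparisons of days, with filled symbols for called genes, dashed lines at the fold threshold of 1 in either direction and black bars at the median of all mRNAs tested. IRF1 reaches -2.24 at 6 d vs 0 d and 1.63 at 9 d vs 6 d, while STAT2 stays between -0.39 and -0.02.

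The other factors of the pathway give the setting for STAT2 and IRF1. All 7 STAT genes were tested. Against 0 d, 1 of the 7 was called at 3 d and none at 6 d or 9 d. The 3 d share, 14.3%, is below the 23.3% over all mRNAs and no result for the list. The gene called was STAT4, a factor known from lymphocytes. It was higher at 3 d (0.34, 0.47 and 0.30 FPKM) than at 0 d (0.08, 0.09 and 0.09 FPKM). Of the 9 IRF genes 8 had a row and 5, IRF1 among them, were tested. Against 0 d, 2 of the 5 were called at 3 d (40.0% beside 23.3% over all mRNAs), 2 at 6 d (40.0% beside 11.4%) and none at 9 d, all lower. IRF7, the factor that amplifies type I interferon production, resembled IRF1, with 3.35, 3.04 and 3.47 FPKM at 0 d, 0.99, 1.21 and 1.43 at 3 d, 0.67, 0.64 and 0.27 at 6 d, with 1.86, 1.85 and 1.22 at 9 d. It fell at 3 d (log2 fold change -1.38) and 6 d (-2.51) vs 0 d and at 6 d vs 3 d (-1.12, and -0.78 without 6 d replicate 3, where it was not called), and it rose at 9 d vs 6 d (1.53). IRF5, a factor of inflammatory signalling, had its low point earlier, at 1.56, 2.09 and 1.36 FPKM at 3 d against 6.67 to 8.50 at 0 d (log2 fold change -2.08), and rose at 6 d vs 3 d (1.77). IRF2 had 8.50, 7.07 and 8.44 FPKM at 0 d and 18.0, 15.1 and 13.5 at 3 d, a log2 fold change of 0.94 (adjusted p = 0.00331) that was called with rescaled FPKM (1.02), and IRF3 had 40.5 to 54.7 FPKM in all libraries, both named after their values were seen.

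Sensors and adaptors that lead to interferon production had a median below that of all mRNAs on each later day. Of 20 names 16 had a row and 13 were tested. Their median log2 fold change was -0.62 at 3 d, -0.54 at 6 d and -0.31 at 9 d vs 0 d. At 3 d, 4 were called lower and 1 higher, which is 38.5% beside 23.3% over all mRNAs. At 6 d 2 were called, TLR4 and IFIH1, both lower, and at 9 d none. The 6 d share, 15.4% beside 11.4%, is near that over all mRNAs and no result for the list. TLR3, the endosomal receptor for double-stranded RNA, had 39.4, 36.8 and 37.4 FPKM at 0 d and 17.0, 15.4 and 17.0 at 3 d, a log2 fold change of -1.20. TICAM1, its adaptor, differed by -1.72 and IKBKE by -1.30 on the log2 scale. The remaining gene called lower at 3 d was IFIH1. IFIH1 reached the level for a test only through its 0 d libraries, which bears on its 3 d and 6 d calls alike. It is in the wider list below too. MAVS was the gene called higher (log2 fold change 1.76). The 9 tested negative regulators, of 10 with a row, gave 1 call against 0 d, SOCS3 at 9 d (11.1% beside 10.9% over all mRNAs, no result for the list), with 209, 227 and 259 FPKM against 107 to 117 at 0 d and a log2 fold change of 1.05 (0.96 without 9 d replicate 3, where it was not called).

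A wider list of 61 other interferon-stimulated genes shows where MX1 and IFI6 stand among genes of their kind. A row was found for 52 names, and 38 of the 53 rows (IFITM3 has 2) were tested. At 3 d vs 0 d, 17 rows were called lower and 3 higher, which together is 52.6% of the tested rows beside 23.3% over all mRNAs. Among those called lower, CMPK2 and IFIH1 reached the level for a test only through their 0 d libraries. The numbers were 13 lower (CMPK2 and IFIH1 again among them) and 1 higher for 6 d, or 36.8% beside 11.4%. For 9 d they were 4 lower (CMPK2 among them) and 1 higher, or 13.2% beside 10.9%. The 9 d share is near that over all mRNAs and no result for the list. The filter favoured the calls of CMPK2 and IFIH1, which add no support to these shares. The median log2 fold change of the 38 rows was -0.82 at 3 d, -0.50 at 6 d and -0.31 at 9 d, and with rescaled FPKM it was -0.75, -0.34 and -0.13. Rescaling left 16, 9 and 3 rows called lower, and a pseudocount of 1 left 8, 5 and 1. Over all mRNAs, that pseudocount cut the calls in either direction from 3585, 1749 and 1675 to 2184, 967 and 888. A mean FPKM of at least 1 kept only 24 of the 38 rows in the test, of which 9, 7 and 2 were called lower. Over all mRNAs it also lowered the calls, at 9 d to 1114 in either direction. How far the excess of the list over all mRNAs held under these settings was not tested. Of the 38 rows, 17 had their lowest day mean at 3 d and 13 at 6 d (44.7% and 34.2%), where the shares over all mRNAs tested were 32.0% and 22.9%. The highest day mean was at 0 d for 23 rows, or 60.5%, beside 36.3% over all mRNAs. CMPK2 and IFIH1 are among the 23, and for them the filter fixed this outcome. The list has members from several branches of the response, and its choice was made with earlier results of these data known.

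Those with the largest changes at 3 d included abundant as well as scarce genes. PARP14, an ADP-ribosyltransferase, had 202, 226 and 170 FPKM at 0 d, 26.8, 38.8 and 26.7 at 3 d, 100, 133 and 101 at 6 d, with 108, 101 and 122 at 9 d. Its 3 d libraries were lower than all the others, with a log2 fold change of -2.70 vs 0 d, and it rose at 6 d vs 3 d (1.86). IFI30, a lysosomal thiol reductase of antigen processing, had 9.72, 9.26 and 11.7 FPKM at 0 d, 0.53, 0.52 and 0.44 at 3 d, 2.96, 2.61 and 3.19 at 6 d, with 11.72, 11.1 and 11.97 at 9 d. The low point of IFI30 at 3 d (log2 fold change -4.11) was followed by calls for a rise at both later steps (2.34 and 1.96), and the 9 d range overlapped that of 0 d. SAMD9 (-3.19), NMI (-2.28), PARP12 (-2.11), PARP9 (-2.03) and DTX3L (-1.51) were also lower at 3 d vs 0 d.

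PSMB8, a catalytic subunit of the immunoproteasome, had 5.12, 5.14 and 4.67 FPKM at 0 d, 2.29, 2.95 and 2.65 at 3 d, 0.67, 0.48 and 0.80 at 6 d, with 2.16, 2.59 and 2.12 at 9 d. It fell at 6 d vs 0 d (log2 fold change -2.78) and at 6 d vs 3 d (-1.88) and rose at 9 d vs 6 d (1.69). PSMB9, another such subunit, had 1.10 to 1.59 FPKM at 0 d and 0.23, 0 and 0.04 at 6 d, a range that overlapped those of 3 d and 9 d. TAP1, the peptide transporter, did not return: it had 12.5, 13.2 and 14.5 FPKM at 0 d and 2.71 to 5.03 FPKM in the 9 later libraries. Of the neighbours of the scarce effectors, IFI44L, which lies beside IFI44 in the RefSeq annotation, had 0.99, 0.97 and 0.98 FPKM at 0 d, at most 0.46 in the 3 d and 6 d libraries, and 0.79, 0.97 and 0.98 at 9 d. CMPK2, beside RSAD2, had 0.42, 0.27 and 0.39 FPKM at 0 d and at most 0.14 later.

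Not all genes of the list were lower. LGALS3BP, a secreted glycoprotein and the most abundant gene of the list, had 713, 691 and 734 FPKM at 0 d and 1745, 2122 and 2005 at 3 d (log2 fold change 1.45). SAMHD1, an enzyme that depletes nucleotides, had 6.89, 6.11 and 10.2 FPKM at 0 d and 34.5, 34.2 and 31.4 at 3 d (2.13), and IFI27 was the remaining row called higher at 3 d (1.44). The chemokine CCL5 was listed at 0 on day 3 and reached 0.37, 0.44 and 0.53 FPKM on day 9 against 0, 0 and 0.08 on day 0. It is the row counted as higher at 6 d and 9 d, but it reached the level for a test only through its 9 d libraries, and with a pseudocount of 1 it was not called. The 15 rows below the level for a test had at most 0.29 FPKM in any library.

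**Figure D3:**
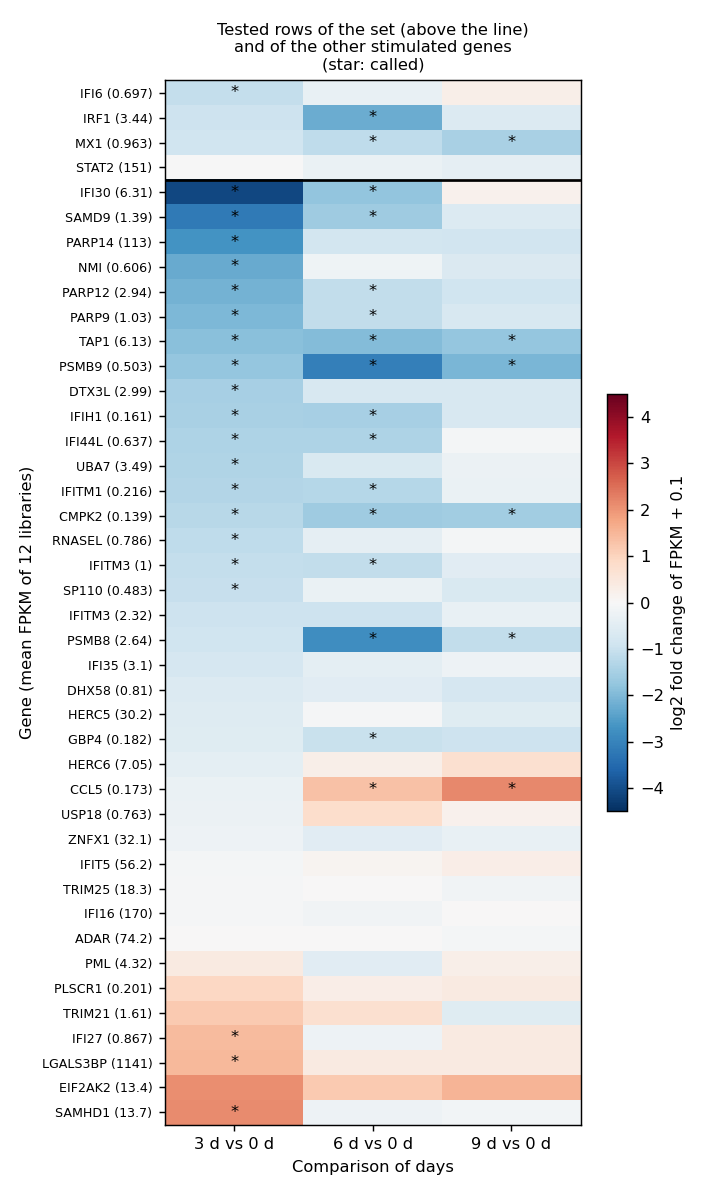
Log2 fold change of FPKM + 0.1 at 3, 6 and 9 d vs 0 d (colour) for the 4 tested genes of the set, above the line, and the 38 tested rows of other interferon-stimulated genes, each with its mean FPKM and with a star where called. Of the 38 rows, 17 are called lower at 3 d, 13 at 6 d and 4 at 9 d.

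The glucocorticoid response list was examined over the same days. Its 5 genes with a row, of 6, led by DUSP1, had a mean sum of 291 FPKM before induction and of 1037, 937 and 475 FPKM at 3, 6 and 9 d, without overlap between 0 d and any later day. The sum of the other interferon-stimulated genes, led by LGALS3BP, was likewise highest at 3 d, with 1398, 2440, 1490 and 1532 FPKM on the 4 days, although the median gene of that list was lower. All 5 glucocorticoid response genes were called higher at 3 d and 6 d and 2 at 9 d vs 0 d, where 8.06%, 3.39% and 3.41% of all mRNAs were. DUSP1 carries most of the sum, and at 6 d vs 3 d 3 of the 5 were called lower (9.23% over all mRNAs), of which FKBP5 was not called with rescaled FPKM or without most single libraries. Dexamethasone was given and withdrawn with IBMX, and the part of either in the levels of the interferon-stimulated genes cannot be told apart from that of time.

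Among genes of the interferon lists with a mean of at least 1 FPKM, a pair split most widely between libraries of a single day. This pattern was chosen for mention after the values were seen. EIF2AK2, the kinase that halts translation upon sensing double-stranded RNA, had 1.64, 18.3 and 1.69 FPKM at 0 d, 17.6, 19.9 and 12.7 at 3 d, 2.11, 20.7 and 14.8 at 6 d, with 23.7, 2.16 and 25.1 at 9 d. Its libraries fell near 2 FPKM or above 12 FPKM on 3 of the 4 days, and it was called in no comparison. ZNFX1, a helicase that senses viral RNA, had 41.3, 6.90 and 40.9 FPKM at 6 d and 50.9, 41.3 and 7.92 at 9 d. Of 11331 mRNAs with a mean of at least 1 FPKM, 5.82% had a highest library over 5 times the lowest of the same day, and of 60 such mRNAs in the interferon lists 2 did. STAT2 and IRF1, the genes of the set above that level, did not. Below that ratio, the widest of the lists were MYD88 at 3 d (4.4 times), TRIM21 at 3 d (3.82 times) and STAT5B at 6 d (3.75 times).

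The mRNAs whose pattern was most like that of a gene were sought among 11329 mRNAs outside the set with a mean of at least 1 FPKM, by the root mean square difference of centred log2(FPKM + 0.1) over the 12 libraries. Nearest to IRF1 were CARD10 (0.32), the row named C1R with LOC112446756 (0.37) and C1S (0.37), where IRF1 itself had a root mean square of 0.89. CARD10, a scaffold of NF-kB signalling, had 174, 182 and 208 FPKM at 0 d, 76.4, 137 and 144 at 3 d, 50.8, 58.6 and 56.6 at 6 d, with 159, 73.0 and 179 at 9 d. As with IRF1, its lowest libraries were those of 6 d and replicate 2 was the lowest of the 9 d libraries. C1S, a protease that starts the complement cascade, had 57.1, 55.2 and 59.7 FPKM at 0 d and 19.2, 16.7 and 19.6 at 6 d. Nearest to STAT2 were CERS5 (0.065), GANAB (0.066) and CLPTM1 (0.067), against a root mean square of 0.18 for STAT2. For the mean of the 6 effectors, 4 of which had a mean below 0.1 FPKM, they were RDH14 (0.087), GLMP (0.090) and PHF23 (0.096).

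**Figure D4:**
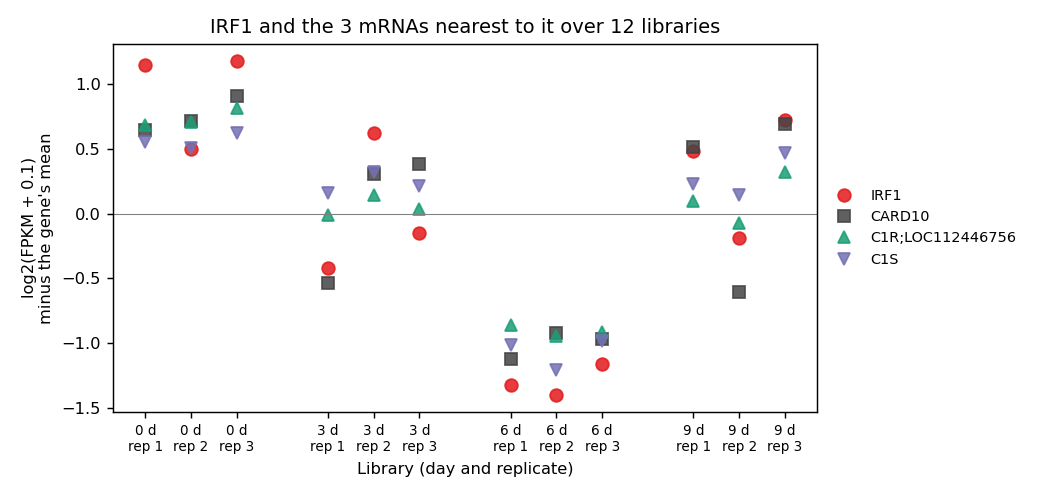
Centred log2(FPKM + 0.1) of IRF1 and the 3 mRNAs nearest to it in each of the 12 libraries. All 4 genes have their lowest values at 6 d, where IRF1 had 1.03 to 1.23 FPKM, and 9 d replicate 2 is the lowest library of its day for each of them.

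Circular RNAs from the genes of the set were nearly absent. Among 14070 circRNAs, which are counted by reads across a back-splice junction, 1 had a host gene in the set. It was an exonic circRNA of IFI6, circRNA4630, with 2 exons, on chromosome 2 from 125662224 to 125663755 on the plus strand of the build used by the authors, and it had 2 reads, both in 0 d replicate 3.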

How the data were processed

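RNA was measured in 12 libraries of bovine intramuscular preadipocytes, grouped by the day in the sample labels. The authors mapped reads to the bovine genome (ARS-UCD1.2 by the study's methods) and assembled transcripts with StringTie, and the deposited mRNA values are FPKM, rounded to 2 decimals. The submitters' processing notes name HISAT2 2.0, StringTie 1.3.0, Bowtie 0.12.2 and the mouse build mm8. The labels describe poly(A) selection and the methods depletion of rRNA from strand-specific libraries. For circRNAs the deposited values used are a count of back-spliced reads per library. The lncRNA and miRNA tables were not used.

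Differences were tested with limma 3.58.1 (lmFit, contrasts.fit, eBayes with a trend) in R 4.3.3 on log2(FPKM + 0.1), with all 12 libraries, a mean for each day and mRNAs of mean FPKM of at least 0.1, in 5 comparisons. The study names edgeR, which needs counts. Fold changes on this scale understate the change of low genes. The fit was tested on simulated data, and no outcome of that test is given here. Tables and figures used Python 3.11.15, NumPy 2.4.6, pandas 2.3.3 and Matplotlib 3.10.9. The genes of the set and all lists were chosen with earlier results of these data known. Genes of the lists called in at least 1 comparison could be named, and the others are given by counts and ranges unless said otherwise. Gene neighbours came from RefSeq on ARS-UCD2.0. No sequences were analysed. Alternatives were pseudocounts of 1 and 0.01, no filter, a mean FPKM of at least 1, median-ratio rescaling, only the 6 libraries compared, a replicate block, no trend, summed rows of 1 name and leaving out each library in turn.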

Additional observations from a re-analysis of the deposited data

How the results depend on the processing

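Of the 4 genes tested, the number called changed under 3 settings and with single libraries left out. With a pseudocount of 1 it was 0 at 3 d vs 0 d, 1 at 6 d vs 0 d, 0 at 9 d vs 0 d and 0 at 6 d vs 3 d, in place of 1, 2, 1 and 1, since a larger pseudocount shrinks fold changes of low genes. A mean FPKM of at least 1 takes MX1 and IFI6 out of the test and left 0, 1 and 0 called at 3, 6 and 9 d vs 0 d. With FPKM rescaled by median ratio 0 were called at 3 d and 1 at 6 d vs 0 d. Leaving out a library gave 0 to 3 at 3 d and 1 to 2 at 6 d vs 0 d. In other comparisons and settings, no filter included, the numbers were as given. Over 410 values of the 20 log2 fold changes, 397 kept their sign and stayed called or not called (some crossed an adjusted p of 0.05 alone), 8 lost and 3 gained a call, and STAT2 at 3 d vs 0 d (-0.02) turned to 0.0588 with rescaled FPKM and ranged from -0.0547 (without 3 d replicate 2) to 0.0292 (without 3 d replicate 1). Over all mRNAs, a pseudocount of 1 called 2184, 967, 888, 1688 and 368 in place of 3585, 1749, 1675, 2939 and 683, and a mean FPKM of at least 1 called 1114 at 9 d vs 0 d. Rescaling raised the share of higher among called mRNAs from 29.9% to 40.6% at 6 d and from 31.3% to 46.6% at 9 d vs 0 d. With the replicate block 1, 2, 1, 1 and 1 genes of the set were called, and no call of theirs changed. Same-numbered libraries shared only a number, with correlations of deviations from -0.098 to 0.112 and 2 of 18 over 0.1. The reads behind an FPKM are unknown.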
